A study of Mus musculus with 4 samples.

Results

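The 10 genes described here, Acadvl, Acadm, Acadl, Acads, Hadha, Hadhb, Hadh, Echs1, Acaa2 and Eci1, encode the enzymes of mitochondrial β-oxidation. They were chosen by name for their place in the pathway, not for any value in these data, and are 10 of the 49554 genes of the gene table on the autosomes and X. ATAC-Seq, in which a transposase inserts into open chromatin and accessible places appear as peaks, was done on sorted bone marrow cells of 2 control and 2 KO libraries. The control mice were Cpt1a fl/fl, although the labels call them WT, and in the KO mice these alleles were deleted by Vav1-Cre, which is active throughout the hematopoietic system, so the deletion was not limited to stem cells. The methods give adult mice on a C57BL/6 background. The labels call the cells long-term HSCs, and the study describes them as HSPCs. Nothing in the labels says that the 2 libraries of a genotype came from separate animals, so each p-value below measures only the spread between these libraries, which may be technical.

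In β-oxidation, fatty acids reach the mitochondrial matrix through the carnitine shuttle, of which CPT1A is the entry step, and are then shortened by rounds of 4 reactions. An acyl-CoA dehydrogenase makes the first double bond, a hydratase adds water, a hydroxyacyl-CoA dehydrogenase oxidizes the product and a thiolase releases acetyl-CoA. The dehydrogenases differ in chain length: ACADVL takes very-long-chain, ACADL long-chain, ACADM medium-chain and ACADS short-chain acyl-CoA. HADHA and HADHB are the subunits of the trifunctional protein, which does the last 3 steps for long chains at the inner membrane. ECHS1 (hydratase), HADH (hydroxyacyl-CoA dehydrogenase) and ACAA2 (thiolase) act in the matrix on shorter chains, and ECI1 shifts double bonds of unsaturated fatty acids so that they can enter the cycle. The comparison addressed whether chromatin at these genes was open to a different degree in cells without Cpt1a.

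The strength of a peak is given as the deposited fold, the ratio of the signal at a summit to the local background of the same library. Peaks of the 4 libraries that overlapped by at least 1 bp were merged into union regions, a region had to hold a peak in at least 2 libraries, and a gene was given the regions from 5000 bp before to 5000 bp after its body. Coordinates are in mm10. The windows of the 10 genes held 36 of the 137553 union regions, with the region between Hadha and Hadhb counted once.

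The lists held 240940 to 277594 summits, and the share with a −log10 q of at least 5 was 42.5% in control 1, 46.9% in control 2, 40.5% in KO 1 and 35.1% in KO 2. KO 2 was lowest here and also had the lowest fold at 6 of the 9 start regions described next. Start regions of stem and progenitor markers were held by all 4 libraries for 9 of 11 genes, including Kit, Hlf, Meis1 and Procr, and by none for Mecom and Hoxa9. The same count was 0 of 5 for T cell, 2 of 4 for B cell, 4 of 6 for granulocyte and 0 of 4 for erythroid markers, and 1 of 4 for genes of cells absent from marrow. Both KO folds were below both controls at 3 of the 6 granulocyte markers: Camp had 9.26 and 6.76 in controls against 5.73 and 4.48 in KO libraries, S100a8 had 7.99 and 5.51 against 3.58 and 4.34, and Ltf had 5.08 and 5.99 against 4.56 and 4.39. Among the stem and progenitor starts, both KO folds were above both controls at Tal1, Runx1 and Slamf1. Tal1 had 10.67 and 10.69 in controls against 12.12 and 11.29 in KO libraries. Runx1 had 8.94 and 8.996 against 9.96 and 10.08, and Slamf1 had 4.21 and 4.78 against 7.03 and 4.81. Control and KO folds overlapped at the other stem and progenitor starts held by all 4 libraries. After quantile normalization, both KO libraries lay below both controls at 18.6% of the 80271 regions held by all 4 libraries, and above at 19.1%. The marker folds given here were not normalized. Control and KO folds overlapped at Mpo, with 3.34 and 4.74 against 3.25 and 3.70. Elane had no peak in control 1 and 1.69 in control 2, below 2.94 and 2.09 in KO libraries, and Ngp had 3.33 and 3.68 in controls, 3.30 in KO 1 and no peak in KO 2. Their part in the differences at the β-oxidation genes was not tested.

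Every β-oxidation gene with a listed start had an open region there in every library. With the strongest region of the Acaa2 window standing in for its start, which the tables used do not give, there were 9 start regions, of which Hadha and Hadhb shared 1. All 9 were held by all 4 libraries and were among the 100000 strongest summits of each. For comparison, the starts of 61.1% of 17274 coding genes lay in a region held by all 4 libraries. The sequences of 4 promoters (RefSeq, GRCm38.p6, from 250 bases before to 50 after the start) are given here. Acadl is shown for the weakest start region, Acadvl for the start region that differed most between the controls, Acadm for the promoter with nuclear receptor and NRF1 letters, and Hadhb for the promoter it shares with Hadha. Capitals mark matches to the motifs searched on both strands, and positions count from 0 at the first base of the gene.

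Acadvl promoter, chr11:70015379-70015678, minus strand: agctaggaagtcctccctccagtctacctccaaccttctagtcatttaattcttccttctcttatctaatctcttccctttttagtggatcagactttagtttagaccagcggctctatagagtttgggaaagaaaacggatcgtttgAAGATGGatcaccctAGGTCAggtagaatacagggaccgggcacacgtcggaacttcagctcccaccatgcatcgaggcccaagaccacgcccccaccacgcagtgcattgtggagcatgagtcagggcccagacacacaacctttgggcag
Acadm promoter, chr3:153944594-153944893, minus strand: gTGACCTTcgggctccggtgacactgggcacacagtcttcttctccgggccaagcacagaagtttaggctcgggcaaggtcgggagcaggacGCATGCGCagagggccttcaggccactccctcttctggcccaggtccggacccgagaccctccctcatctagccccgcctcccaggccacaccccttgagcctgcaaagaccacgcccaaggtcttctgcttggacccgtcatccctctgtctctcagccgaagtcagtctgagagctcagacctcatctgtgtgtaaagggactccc
Acadl promoter, chr1:66863260-66863559, minus strand: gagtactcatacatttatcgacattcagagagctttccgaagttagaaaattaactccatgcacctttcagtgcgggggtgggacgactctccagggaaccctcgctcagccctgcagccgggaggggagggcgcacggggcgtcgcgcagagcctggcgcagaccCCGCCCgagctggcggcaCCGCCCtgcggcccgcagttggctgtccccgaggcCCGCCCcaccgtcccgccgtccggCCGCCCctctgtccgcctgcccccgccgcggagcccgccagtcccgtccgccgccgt
Hadhb promoter, chr5:30155003-30155302, plus strand: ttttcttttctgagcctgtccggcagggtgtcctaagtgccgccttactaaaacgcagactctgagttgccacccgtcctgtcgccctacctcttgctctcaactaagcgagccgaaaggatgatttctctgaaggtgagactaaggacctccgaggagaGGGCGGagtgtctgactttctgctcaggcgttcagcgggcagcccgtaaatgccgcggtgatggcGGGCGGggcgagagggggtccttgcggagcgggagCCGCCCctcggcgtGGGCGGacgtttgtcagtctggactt

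The Acadl promoter had the highest GC content of the 9 promoters in the table, 70.3%, against a median of 56.3% over 21263 coding promoters, and it was dense in CpG, with an observed to expected ratio of 0.932 against a median of 0.567. Its 4 capital runs are GC boxes (GGGCGG or its complement, bound by Sp and KLF factors) at −84, −66, −31 and −7. The Acadvl promoter had the lowest GC content, 50.7%, and no GC box. Its capitals are AAGATGG (the letters of a YY1 site) at −102 and AGGTCA at −87. AGGTCA is a repeat found in sites of nuclear receptors such as the PPARs, and a single one is only part of a PPAR site. The Acadm promoter had no GC box either. Its capitals are AAGGTCA on the opposite strand at −249, the extended repeat bound by estrogen-related receptors, which contains AGGTCA, and GCGCATGC (the NRF1 core) on the opposite strand at −158. The Hadhb promoter had 4 GC boxes, at −90, −25, 10 and 24, and shares 228 of its 300 bases with the Hadha promoter, in which the box at −90 of Hadhb lies at −188.

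GC boxes were present in 7 of the 9 promoters, all but Acadvl and Acadm, against 35.7% of the 32851 promoters in the table. The only Hadha box is also a Hadhb box, so these 7 are not independent. Of the 32851 promoters 21263 belong to coding genes, as all members do, so this share and those below also cover noncoding genes. AGGTCA was present in Acadvl, Acadm and Echs1, 3 of 9, against 16.3% of all promoters, and AAGATGG in Acadvl, Hadha and Eci1, 3 of 9, against 6.34%. AAGGTCA was found only in Acadm (4.72% of all promoters), GCGCATGC only in Acadm (2.71%) and CCAAT, the NF-Y letters, only in Hadh (37.4%). None of the 9 held the ETS letters CCGGAAG, which 8.86% of all promoters have, or the E-box CACGTG, which 7.15% have. Likewise none held a TATA box, searched as TATAAA and present in 13.6% of promoters. The site of CREB and ATF factors, TGACGTCA, was also in none of the 9 and in 1.79% of all. A match or its absence describes these windows alone. Acaa2 had no entry in the promoter table.

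The 4 acyl-CoA dehydrogenase genes had both the weakest start regions and some of the stronger ones. At Acadl the fold at the start (chr1:66862690-66863594) was 9.63 and 9.93 in controls against 10.6 and 11.3 in KO libraries. Both KO values were above both controls, and Acadl was the lowest of the 9 start regions in every library. Its within-library percentile, the share of the union regions held by a library whose fold was at or below it, was 82.6 and 83.3 in controls against 85.3 and 88.5 in KO libraries. At Acadvl (chr11:70014815-70015550) the fold was 10.5 and 15.0 in controls against 13.4 and 12.3 in KO libraries. The KO values lay between those of the controls, which differed by 8.51 percentile points (85.1 and 93.6), the widest gap between controls at any start. At Acadm (chr3:153943840-153944996) the fold was 16.6 and 16.9 in controls against 16.6 and 15.5 in KO libraries, with percentiles from 94.9 to 95.7. The KO folds were at or below the lower control, with a mean difference smaller than the gap between the KO libraries. At Acads (chr5:115118844-115119943) the fold was 19.0 and 18.7 in controls against 16.7 and 14.8 in KO libraries. Both KO values were below both controls, and the percentile was 97.3 in both controls against 95.1 and 94.1.

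Hadha and Hadhb are transcribed away from each other, with 272 bp between their starts, and 1 region of 1562 bp (chr5:30154542-30156103) covered both. Its fold was 18.7 and 17.8 in controls against 19.8 and 16.2 in KO libraries, so the controls lay between the KO values. The region held 6 or 7 summits in each library, and each start had a summit of its own within 100 bp. Near the Hadha start the strongest summit lay 29 to 32 bp before the first base in all 4 libraries, with folds of 18.7, 17.8, 14.7 and 16.2 in control 1, control 2, KO 1 and KO 2. Near the Hadhb start it lay from −2 to 4 bp, with folds of 16.4, 17.3, 19.8 and 15.2. The Hadha summit was the higher of the pair in both controls and KO 2, and the Hadhb summit was the higher in KO 1. This divergent promoter therefore had 1 accessible block over the genes for both subunits of the trifunctional protein.

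The genes for the matrix enzymes had strong starts. At Hadh (chr3:131271598-131272593) the fold was 17.9 and 17.7 in controls against 21.1 and 16.9 in KO libraries, and the controls lay between the KO values. At Echs1 (chr7:140116142-140116936), where the region also overlaps the neighboring gene Paox, the fold was 18.5 and 22.6 in controls against 17.5 and 17.6 in KO libraries. Both KO folds were below both controls, but by percentile KO 2 and control 1 were level (both 96.9), and control 2, at percentile 99.4, was the highest value of any start region in any library. The stand-in for the Acaa2 start was chosen for its strength, so its level is a description. It lay across the lower-numbered end of the gene (chr18:74778330-74779701), overlapped Gm41774, Scarna17 and Gm23119, and had folds of 16.2 and 16.1 in controls against 15.1 and 13.5 in KO libraries. Both KO folds were again below both controls. At Eci1 (chr17:24426346-24427036) the fold was 19.2 and 18.4 in controls against 19.3 and 14.9 in KO libraries, and the KO values lay on either side of the controls.

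**Figure D1:**
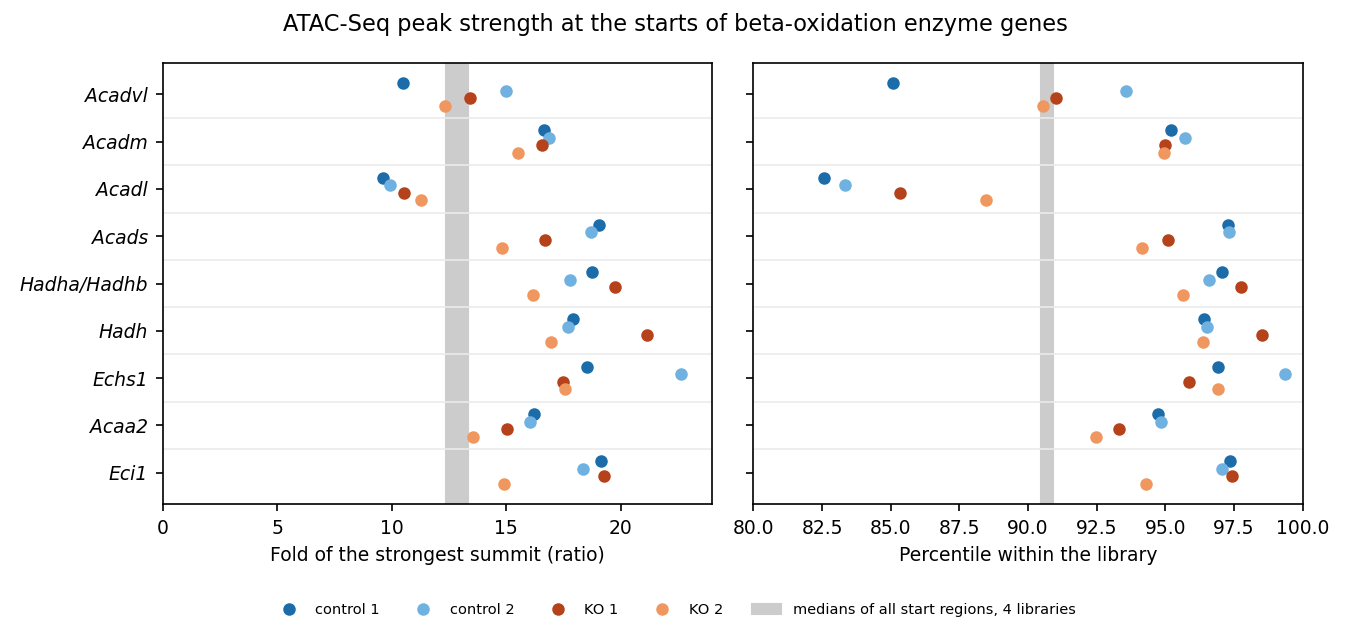
Fold of the strongest summit (left) and percentile among the regions of the same library (right, axis from 80 to 100) at the 9 start regions, with a point per library and the grey band spanning the 4 library medians over all gene start regions. Acadl lies below the band in every library, Acadvl straddles it, and the other 7 lie above it in all 4 libraries. The Acaa2 region among these 7 was chosen for its strength.

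Apart from Acadl and Acadvl, these starts lay above the median gene start. The Acaa2 stand-in among them was chosen for its strength, and it counts in the medians of the 9 below. The median percentile over the 9 was 96.4 and 96.5 in controls against 95.1 and 94.3 in KO libraries, where all gene start regions had medians of 90.9, 90.5, 90.8 and 90.6. The order of the genes was not sharply resolved: among the 7 stronger starts the percentile ran from 92.5 to 99.4, and the range of each gene over the 4 libraries overlapped that of at least 1 other gene of the 7. The KO minus control difference in mean percentile ran from −2.68 at Acads to 3.95 at Acadl, with a median of −0.50. Without KO 2 the median was 0.22, without control 1 −1.21 and without KO 1 −1.18, so its sign rested on KO 2. Among the 100000 strongest summits per library the Acadl value was 10.4 and the Acads value −5.22. Percentiles there were taken within fewer, stronger regions, which stretches differences near the top of the scale. Ranked by −log10 p the Acadl and Acads values were 1.32 and −2.17. The gap between the 2 KO libraries was 0.963 at Acads and 3.12 at Acadl, and the gap between the controls was 0.065 and 0.738.

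The summits were fixed in place at most starts. The strongest summit near the first base lay at 3 to 7 bp at Acadvl, 18 to 38 bp at Acads and 56 to 63 bp at Hadh in the 4 libraries, and from −88 to −73 bp at Echs1 and −29 to −8 bp at Eci1. At Acadm and Acadl it differed more. Within 100 bp of the start it lay at 19, 17, 14 and −91 bp at Acadm in control 1, control 2, KO 1 and KO 2. At Acadl it lay at −56, −50, −13 and −79 bp. The strongest summit of the whole region lay at 110, 17, 103 and −91 bp at Acadm and at 364, −50, −13 and −79 bp at Acadl. By that measure the region of Hadha and Hadhb also differed, at −31, −29, −277 and −31 bp from the Hadha start. The Acadm and Acadl regions had 3 to 5 summits in each library.

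A model across all regions held by all 4 libraries was used to set these differences against the replicate spread (limma on log2 fold after quantile normalization, Benjamini-Hochberg over 80271 regions). It called 0 regions in the genome at an adjusted p below 0.05 (0%), with a lowest adjusted p of 0.282, and 6123 (7.63%) had an unadjusted p below 0.05. With 2 libraries a genotype, an exact permutation test of a single region cannot give a two-sided p below 0.333. The study, which tested read counts, did report peaks with increased and with decreased accessibility in KO cells. It placed the decreased ones in metabolic regions. The 0 calls here hold for this test of peak folds alone. Of the 36 regions of the β-oxidation genes, 23 were held by all 4 libraries and tested. None was called, and 1 of 23 had an unadjusted p below 0.05. Differences below are KO minus control on the log2 scale.

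None of the 9 start regions passed the test, and 5 had lower and 4 higher mean values in KO. The differences ran from −0.22 (SE 0.12) at Acads, with adjusted p = 0.707 by limma, to 0.25 (SE 0.185) at Acadl, with adjusted p = 0.794. The 95% intervals of the 9 reached from −0.47 to 0.64 at their outer ends. At every start this model's interval left out a 2-fold change in either direction. Its width rests mostly on the spread at other regions (17.4 of 19.4 degrees of freedom), not on the libraries at that start. It can be too narrow where a start's own libraries differ more, as the controls did at Acadvl (3.34 and 3.89). At Hadha and Hadhb the difference was 0.01, with an interval from −0.23 to 0.26, and at Acadm −0.02, from −0.28 to 0.24. On the normalized scale both KO libraries were below both controls at 2 starts, Acads and Acaa2, and above them at 2, Acadl and Hadh. Over all 23 tested regions these counts were 5 below (21.7%) and 5 above (21.7%), where all 80271 regions gave 18.6% and 19.1%.

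The median difference over the 23 regions was 0.01, against 0.00 over all regions, whose quartiles were −0.18 and 0.18. It was −0.02 over the 9 starts, against 0.03 over all gene start regions, and 0.10 over the 14 tested regions away from the starts. Without quantile normalization the median of all regions was −0.08 and that of the 23 regions −0.03. In this bulk assay, a lower fold cannot be told apart from fewer cells with an open region.

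**Figure D2:**
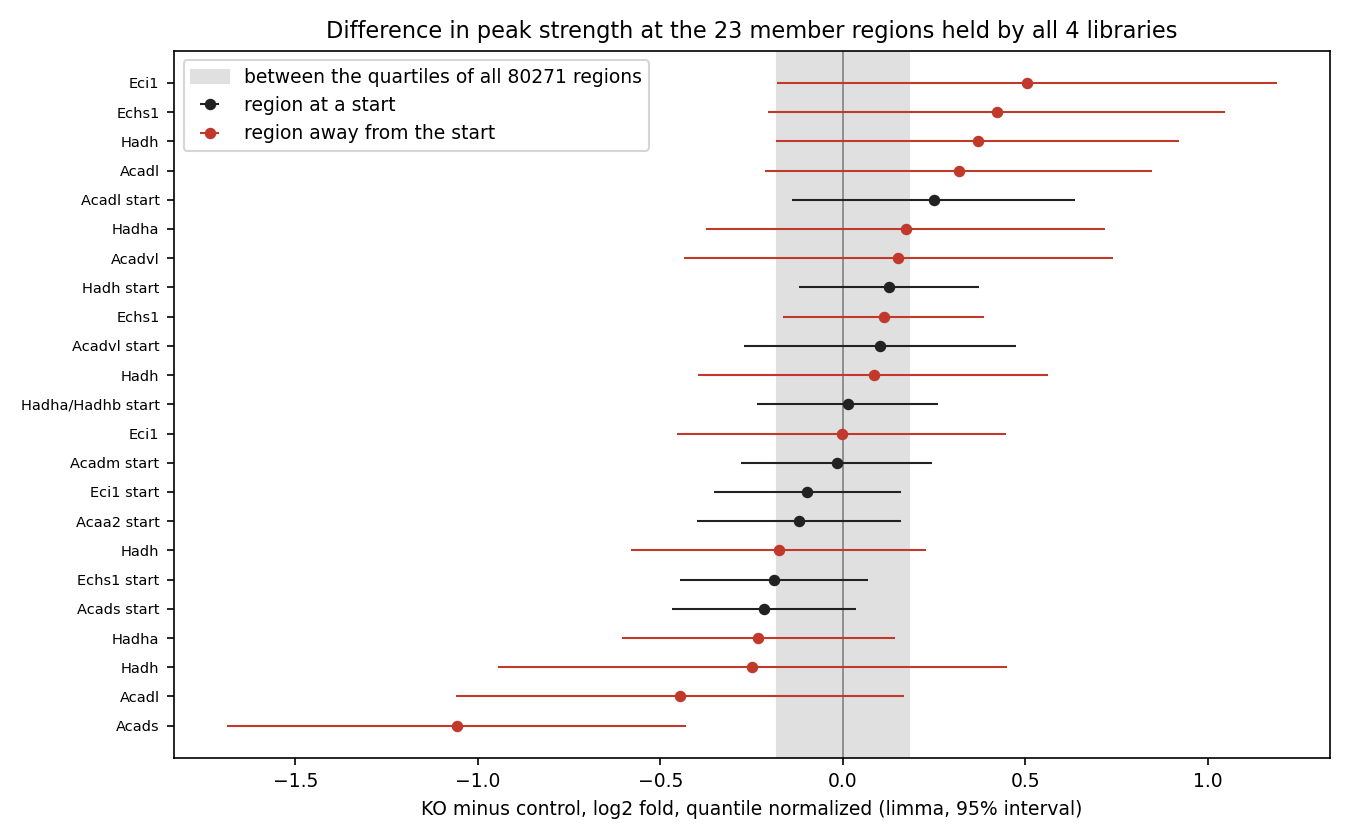
KO minus control difference in log2 fold with its 95% limma interval for the 23 regions held by all 4 libraries, ordered by size, with start regions in black and the others in red. The grey band runs between the quartiles of all regions, −0.18 and 0.18, and only the lowest interval, at a region downstream of Acads, does not reach 0.

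Away from the starts there were 27 regions, 19 in gene bodies and 8 in the flanks. They were weaker: their median fold was 5.46, 5.02, 4.91 and 3.67 in control 1, control 2, KO 1 and KO 2, where the starts had 17.9, 17.7, 16.7 and 14.9. Presence also differed more between libraries, since 14 were held by 4 libraries, 4 by 3 and 9 by 2. The 13 regions held by 2 or 3 libraries had folds from 2.20 to 5.93. The library missing was control 1 at 8 of them, control 2 at 2, KO 1 at 6 and KO 2 at 6. The gene bodies alone do not place these regions in exons or introns, which the gene table used does not give.

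By presence, the β-oxidation genes showed 1 region only in control and 0 only in KO. Regions that both controls and neither KO library held made up 6.05% of all union regions, and those that both KO and neither control library held made up 3.47%, against 2.78% and 0% of the 36 regions here. The region only in control lay in the body of Eci1 (chr17:24432542-24432746, 5961 bp from its start), with folds of 2.64 and 2.60, at percentiles 14.4 and 10.6 of the control libraries. It was thus among the weakest peaks of both. Of the other 8 regions held by 2 libraries, each had 1 control and 1 KO library. Among the 100000 strongest summits of each library, 2.75% of 59223 regions were specific to control and 3.11% to KO, and the β-oxidation genes had 0 of either kind. The share held by all 4 libraries was 63.9% here and 58.4% over all union regions.

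**Figure D3:**
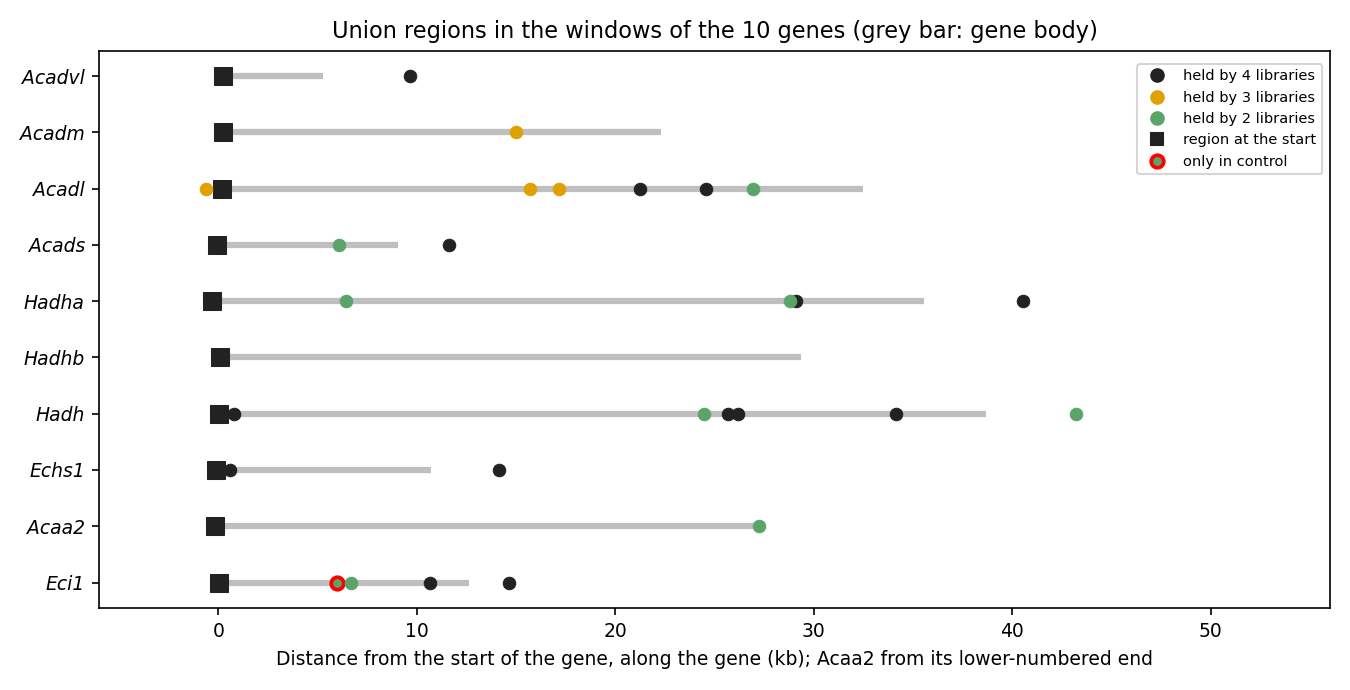
Position of the 36 regions along the 10 genes in kb from the start (Acaa2 from its lower-numbered end), with squares for start regions, colors for the number of libraries that held a region and a grey bar for the gene body. The 9 start regions are all held by 4 libraries, and the regions held by 2 or 3 lie away from the starts, including the Eci1 region only in control, ringed in red.

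The genes differed in how many regions they had. Acadl and Hadh had 7 each, Hadha and Eci1 5, Acads and Echs1 3, Acadvl, Acadm and Acaa2 2, and Hadhb only the region it shared with Hadha. Length alone did not order them: Hadhb spans 29341 bp and Eci1 12634 bp. The strongest region away from a start, with folds of 15.0, 15.7, 17.2 and 14.9, lay downstream of Echs1 (chr7:140101743-140102848) and holds the start of the neighboring gene Fuom. The next, downstream of Hadha (chr5:30113950-30114888), overlaps Garem2 and had folds of 11.9 and 12.2 in controls against 10.9 and 8.57 in KO libraries. Within a gene body the strongest were at Hadh (chr3:131237681-131238234), with 11.4, 10.5, 10.4 and 7.88, and at Eci1 (chr17:24437101-24437606), with 9.23, 9.12, 7.67 and 9.48.

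The largest difference was downstream of Acads. The region at chr5:115107471-115108030 overlaps Rpl37rt, 2238 bp from that gene's start, and lies 11596 bp from the Acads start, beyond the far end of the gene. Its fold was 7.85 and 8.33 in controls against 2.81 and 4.54 in KO libraries. Both KO values were far below both controls, and the percentile was 76.0 and 77.6 against 16.2 and 53.8. The difference was −1.06 (SE 0.301, 95% interval −1.69 to −0.43), with an unadjusted p of 0.00227 by limma, and it did not pass the correction over all regions (adjusted p = 0.501). Only 0.074% of all tested regions had a difference as low or lower. Leaving out 1 library at a time gave differences from −1.45 to −0.67, the last without KO 1.

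The other regions with the widest differences had lower folds in both controls than this one. In the body of Acadl (chr1:66841912-66842261) the fold was 4.02 and 5.02 in controls against 3.75 and 2.63 in KO libraries, a difference of −0.45 (SE 0.293). In the body of Hadh (chr3:131246313-131246581) it was 4.10 and 6.61 against 5.55 and 3.08, so the groups overlapped, and the difference was −0.25 (SE 0.333). Among the higher values, a region downstream of Eci1 that overlaps Dnase1l2 (chr17:24441210-24441396) had folds of 4.33 and 2.09 in controls against 4.92 and 3.50 in KO libraries, with a difference of 0.50 (SE 0.328). A region in the body of Echs1 (chr7:140115581-140116059, also within Paox) had 5.46 and 4.00 against 4.92 and 6.71, a difference of 0.42 (SE 0.299). Next to the Hadh start (chr3:131271195-131271461) the fold was 3.16 and 2.30 against 3.10 and 3.62, a difference of 0.37 (SE 0.264). None of these 5 passed the test by limma: their adjusted p ran from 0.76 to 0.903. The Hadh difference at chr3:131246313 turned positive without control 2 or without KO 2, and the Eci1 difference was −0.01 without control 2. Leaving out 1 library at a time, the Acadl difference ran from −0.71 to −0.18 (without KO 2), that in the body of Echs1 from 0.16 (without KO 2) to 0.69, and that next to the Hadh start from 0.15 (without control 2) to 0.59.

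**Figure D4:**
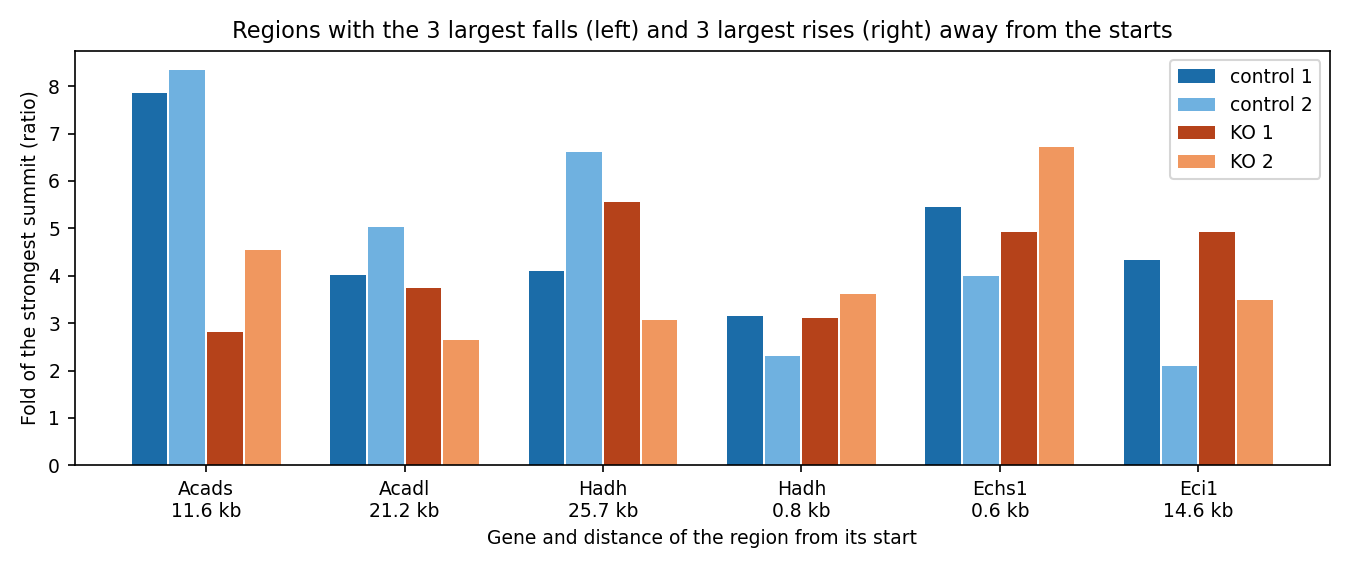
Fold of the strongest summit per library at the regions away from the starts with the 3 lowest (left) and 3 highest (right) KO minus control differences, with a bar per library and the axis from 0. The region downstream of Acads has both KO bars, 2.81 and 4.54, below both control bars, 7.85 and 8.33.

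A list of 44 other fatty acid oxidation genes, from carnitine shuttle to regulators, had 260 union regions, and 157 of them (60.4%) were held by all 4 libraries. Both controls alone held 17 (6.54%), and both KO libraries alone held 12 (4.62%). None of the 157 was called by limma, 11 had an unadjusted p below 0.05, and their median difference was −0.01. Of the 34 genes with a start in the promoter table, 31 had a start region held by all 4 libraries, with median percentiles of 95.1, 95.6, 95.7 and 95.8 in control 1, control 2, KO 1 and KO 2.

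Each group of the list had mostly open starts. The 3 electron transfer genes Etfa, Etfb and Etfdh, which pass electrons from the acyl-CoA dehydrogenases to the respiratory chain, had start regions at percentiles 92.7 to 99.5 and no region specific to a genotype. All 6 starts of the other acyl-CoA dehydrogenases and all 7 peroxisomal starts were held by all 4 libraries. Of the carnitine shuttle, all 5 starts were held. The weakest was Cpt1c, with folds of 3.46 and 3.55 in controls against 3.10 and 2.42 in KO libraries. Its percentiles were 34.9 and 34.2 against 25.2 and 3.98. The start of the deleted gene Cpt1a itself had folds from 7.50 to 9.07, the highest in KO 2, below all 9 β-oxidation starts in every library. The peak lists give no reads over single exons, so they do not check the deletion. The starts that were not held by every library were Pcca, a propionyl-CoA carboxylase subunit (3 libraries), Acacb, which makes the CPT1 inhibitor malonyl-CoA (2), and the first listed start of the coactivator Ppargc1a (0).

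Regions only in control included those in Pparg (3), Cpt1a, Eci2, Ppard and Ppargc1a (2 each) and Slc25a20, Scp2, Decr2 and Acacb (1 each). Regions only in KO were found in Ppargc1a and Ppargc1b (3 each) and Acad10, Acad11, Mcee, Pcca, Eci3 and Ppard (1 each). The regulators held 8 of the 17 and 7 of the 12, in 114 of the 260 regions. ECI2 is the paralog of ECI1, and CPT1A is the entry step of the carnitine shuttle. Cpt1a had 2 of 18 regions only in control and Eci2 2 of 7, where Eci1 had 1 of 5. Among the strongest summits of each library, Cpt1a had 0 regions only in control and 1 only in KO. Eci2 had 0 of either kind there, as did the β-oxidation genes.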

How the data were processed

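ATAC-Seq libraries came from sorted marrow cells, 2 of each genotype. The authors called peaks in each library separately and deposited 4 lists of summits, each with a fold (a ratio over local background) and a −log10 p and −log10 q. The submitters' processing notes name Bowtie2, MACS2 and mm10, with no versions. Without read counts, sequencing depth and the resulting precision are unknown.

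Peaks on autosomes and X were merged as described above in Python 3.11.15 (pandas 2.3.3, numpy 2.4.6). Figures were drawn with matplotlib 3.10.9. Each region took the fold of its strongest summit in each library. The 80271 regions with a value in every library were compared as log2 fold after quantile normalization in limma 3.58.1 (R 4.3.3, eBayes with a mean-variance trend, two-sided, threshold 0.05). The study's own test, DiffBind with edgeR, needs reads and was not repeated. Gene bodies and promoters came from RefSeq (GRCm38.p6). Genes with several listed starts were given the first.

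Named are the 10 genes, their regions specific to a genotype, the 3 largest differences in each direction, and other fatty acid oxidation genes that had a genotype-specific region or a start not held by every library. A gene that this rule covers is left out of the text. Other regions named in the text were chosen after their values were seen. The members and all lists were chosen with earlier results of these data known. The limma script was tested on simulated data.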

Additional observations from a re-analysis of the deposited data

How the results depend on the processing

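At the β-oxidation genes, 23 regions were held by all 4 libraries in the main setting and 14 when a peak had to cover at least 0.5 of the region. Regions only in control, 1 in the main setting, were 2 with a −log10 q of at least 5, 0 among the 100000 strongest summits per library and 2 with 200 bp on each side of the summits. Leaving out 1 library at a time gave 1 to 19 regions only in control and 0 to 14 only in KO, the highest without control 2 and without KO 2, since a genotype is then represented by 1 library. The number of regions called by limma over the genome was 0, became 1 with the deposited −log10 p in place of the fold, 0 to 2 when 1 library was left out (2 without KO 1) and 54 with the replicate block, of which 0 were at the β-oxidation genes under any of these. The block was not paired by the labels: deviations of same-numbered libraries correlated at 0.005. The lone library of a genotype was assumed to vary like the others.

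The median difference over the regions of the β-oxidation genes was 0.01 and ran from −0.03 to 0.04 when 1 library was left out. It was −0.03 without quantile normalization and, on its own scale, 0.02 with the deposited −log10 p. Of 63 percentile differences at the 9 start regions under 7 alternatives each, 53 moved by less than the spread between libraries, which was taken from the main setting. Leaving out 1 library cannot move a difference beyond this spread, which is built from the gaps between replicates. Those alternatives therefore count among the 53 by construction and do not show stability. Of the 10 that moved more, 3 were at Acadl (1.32 with −log10 p, 6.90 over regions held by all 4 libraries, 10.4 among the strongest summits), 3 at Acads (−2.17, −3.44 and −5.22 in the same order), and the others at Hadh (2.62), Echs1 (−3.38) and Acaa2 (−1.16 with −log10 p and −3.27), the values without a named setting being those among the strongest summits. Percentiles over regions held by all 4 libraries and among the strongest summits were taken within fewer, stronger regions (80271 and 59223 against 137553). This stretches differences near the top of the scale, so those values are not on the scale of the main setting. Of 55 values for the 6 regions away from the starts named for their differences, 52 kept their direction. The exceptions were the region in the body of Hadh (0.09 without control 2 and 0.17 without KO 2, with a range of −0.67 to 0.17 when 1 library was left out) and the region downstream of Eci1 (−0.006 without control 2, range −0.006 to 1.01). With the replicate block or without the mean-variance trend, each difference equals that of the main setting by design. Those values therefore count among the 52 by construction. Omitting the mean-variance trend in limma, an alternative added after the data were seen, changed no call. Depth is not known from the peak lists, so weak peaks that a library lacks were not detectable there and need not be absent.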
